A study of Homo sapiens with 6 samples.

Results

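Type I interferon genes were examined in HaCaT keratinocytes as 10 named members: the IFIT family (IFIT1, IFIT2, IFIT3 and IFIT5), the OAS family (OAS1, OAS2, OAS3 and OASL), MX1 and STAT2. The members were chosen by name, with earlier results of these data known, and all 10 were found among the 22152 genes of the deposited table. HaCaT is a spontaneously immortalized human keratinocyte line. The cells received a synthetic mimic at 1 nM, either a negative control (NC) or miR-21-3p, the passenger strand of the miR-21 precursor, and polyadenylated RNA was sequenced after 48 h. There were 3 replicates per group of this 1 cell line, and nothing in the sources used here says whether they came from separate cultures, so the p-values measure only the spread between these samples, which may be technical. Both groups were transfected with a small RNA duplex and no untransfected sample was analysed here, so the comparison shows what differs between the 2 duplexes and not what transfection itself did.

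Cells recognise double-stranded RNA in the cytosol and in endosomes and answer by making type I and type III interferons. Interferon binding activates the receptor-bound kinases JAK1 and TYK2, which phosphorylate STAT2. With IRF9 it takes part in a complex that binds a short element, the interferon-stimulated response element, in front of its target genes. IFIT proteins bind RNA and block translation of foreign transcripts, OAS enzymes make short oligoadenylates when they meet double-stranded RNA, and MX1 is an antiviral GTPase. Keratinocytes carry this response as part of the defence of the skin.

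The element was searched in RefSeq promoters (build GRCh38.p14, 250 bases before to 50 after each start site) as the letters GAAA, any 2 bases and GAAA again, or on the other strand TTTC, any 2 bases and TTTC, and overlapping matches were counted separately. Of the 10 members, 7 had a promoter entry, and 5 of these 7 genes held at least 1 match, against 4.38% of all 27305 genes with an entry. One match that lies wholly before a start site is given for each of these 5 genes, because they are the members whose promoter entries hold the letters that the interferon-activated complex is known to bind. IFIT3 and MX1 have several RefSeq start sites, and the window comes from 1 of them. Each window runs 5′ to 3′ on the gene's own strand, which is the plus strand for all of them, and the capitals mark the matching letters.
IFIT1, chr10:89392492-89392531: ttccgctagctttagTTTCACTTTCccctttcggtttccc
IFIT3, chr10:89332463-89332502: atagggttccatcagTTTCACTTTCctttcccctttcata
IFIT5, chr10:89414508-89414547: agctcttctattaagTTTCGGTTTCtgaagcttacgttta
OAS3, chr12:112938316-112938355: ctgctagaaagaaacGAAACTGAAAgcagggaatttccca
MX1, chr21:41431839-41431878: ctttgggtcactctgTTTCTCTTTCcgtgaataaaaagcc
The IFIT and MX1 windows hold the element on the opposite strand and the OAS3 window holds it forward. The IFIT1 match began 116 bases before the start site and that of IFIT5 45 bases before it. OAS1 and STAT2 held no match in their windows, which says only that these letters are not there. IFIT2, OAS2 and OASL had no promoter entry. Of a list of other interferon-stimulated genes, 27 of the 41 with an entry held a match.

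In control-transfected cells the members were already expressed over a wide range. Levels between genes were compared as normalised read count per kilobase of exon (GENCODE release 29 lengths). IFIT3 was highest at 1835 ± 39.4 per kilobase (SD, n = 3), above 96.8% of tested genes, and IFIT2 followed at 1540 ± 18.3. STAT2 came next at 681 ± 10.7 per kilobase. OAS3 at 496 ± 52.9, IFIT1 at 452 ± 18.4, IFIT5 at 449 ± 22.6 and OAS1 at 439 ± 16.5 followed, and each overlapped the next in this order in its replicate range. OAS2 lay lower at 179 ± 12.8 and OASL at 83.4 ± 5.40. MX1 was lowest at 36.8 ± 3.72 per kilobase, above 16.8% of tested genes. The remaining steps of the order, from IFIT3 to IFIT2, to STAT2, to OAS3, and from OAS1 to OAS2, to OASL and to MX1, were larger than the replicate spread.

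With the miR-21-3p mimic the IFIT genes and OAS3 had means 12.9% to 21.9% higher, STAT2 was lower, and OAS1, OAS2, OASL and MX1 differed by less than their replicate spread. Of the 10 members, 4 were called higher (IFIT1, IFIT3, IFIT5 and OAS3) and 1 lower (STAT2) by limma at an adjusted p under 0.05. Over all 14795 genes tested the share called was 10.8%, with 6.11% higher and 4.66% lower. Among the 9751 genes with a mean count at or above that of the lowest member it was 13.4%, with 8.09% higher and 5.3% lower. The median log2 fold change was 0.11 over the members and 0.00 over all genes tested.

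**Figure D1:**
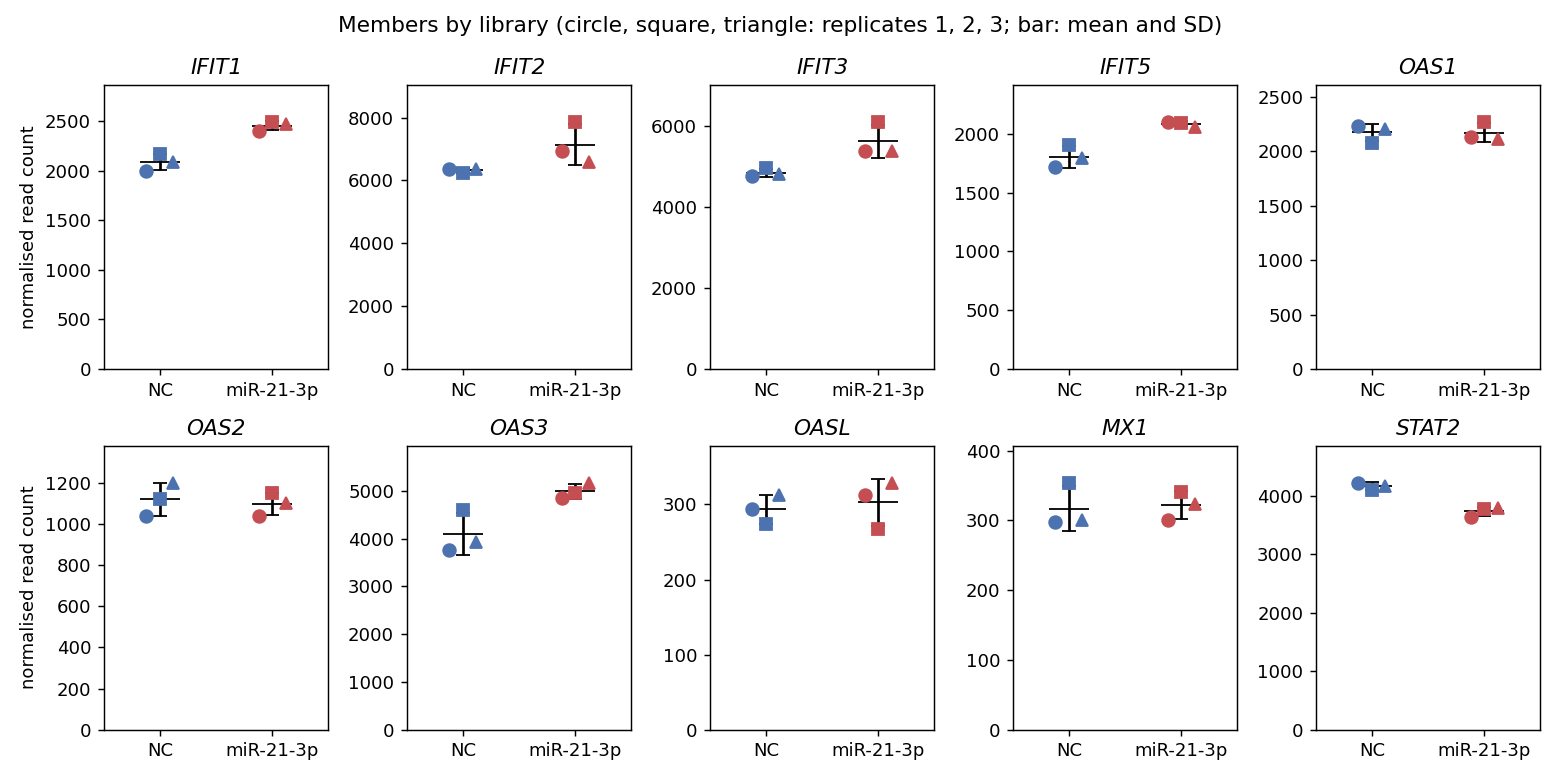
Normalised read count (vertical axis, starting at 0) of each member in the 3 NC and 3 miR-21-3p libraries, with the group mean and SD as bars and 1 symbol per replicate number. IFIT1, IFIT2, IFIT3, IFIT5 and OAS3 lie wholly above their NC values and STAT2 wholly below, and the other members overlap.

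Among the IFIT genes, IFIT1, which recognises foreign RNA ends, was measured at 2000, 2170 and 2090 normalised read counts in NC replicates 1 to 3 and at 2400, 2490 and 2470 in the miR-21-3p replicates. All miR-21-3p libraries lay above all NC libraries. The mean was 17.6% higher, a log2 fold change of 0.23 ± 0.05 (SE, adjusted p = 0.013). IFIT3, a partner that stabilises IFIT1, read 4760, 4960 and 4810 in NC and 5380, 6100 and 5390 with miR-21-3p. Again the groups did not overlap, although miR-21-3p replicate 2 stood above the other two. The log2 fold change was 0.21 ± 0.05 (adjusted p = 0.027).

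IFIT5, an RNA-binding member of the same family, read 1720, 1900 and 1790 in NC against 2100, 2090 and 2060 with miR-21-3p. The miR-21-3p replicates were close to each other and NC replicate 2 was the nearest control to them. IFIT5 rose by 0.21 ± 0.05 on the log2 scale (adjusted p = 0.023). IFIT2, which is known to form complexes with IFIT1 and IFIT3, read 6360, 6230 and 6360 in NC and 6950, 7860 and 6590 with miR-21-3p. Its groups did not overlap, but the miR-21-3p replicates varied by 9.18% of their mean against 1.19% in NC. The log2 fold change of 0.17 ± 0.06 missed the threshold (adjusted p = 0.078). Without miR-21-3p replicate 2, the log2 fold change of IFIT2 was 0.10 (limma, adjusted p = 0.20). All 4 IFIT genes thus had every miR-21-3p library above every NC library, an arrangement found in 16.5% of all genes tested. These 4 genes lie in 1 cluster on chromosome 10.

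In the OAS family only OAS3 was called. OAS3, the longest of the OAS enzymes, read 3770, 4590 and 3920 in NC and 4850, 4950 and 5170 with miR-21-3p. NC replicate 2 lay well above the other NC libraries and close to the miR-21-3p group, and the groups did not overlap. The mean was 21.9% higher, a log2 fold change of 0.29 ± 0.07 (adjusted p = 0.019), which was the largest among the 10 members.

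OAS1, the smaller synthetase encoded next to OAS3 on chromosome 12, read 2230, 2080 and 2210 in NC and 2130, 2270 and 2110 with miR-21-3p. The groups overlapped, and the interval of the log2 fold change ran from -0.11 to 0.11 (95%, adjusted p = 0.98). OAS2, the third neighbour, read 1040, 1120 and 1200 against 1040, 1150 and 1100. Its log2 fold change of -0.03 had an interval from -0.17 to 0.11 (adjusted p = 0.80). OASL, an OAS-like protein without synthetase activity that assists the sensor RIG-I, read 294, 274 and 312 in NC and 312, 268 and 329 with miR-21-3p. Its interval was wider, from -0.17 to 0.25 (adjusted p = 0.80), at a lower count than OAS1.

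MX1 read 297, 354 and 300 in NC and 301, 341 and 324 with miR-21-3p. Replicate 2 was the highest library in both groups, and the groups overlapped. The log2 fold change of 0.03 had an interval from -0.18 to 0.23 (adjusted p = 0.89). A log2 fold change of 0.21, as in IFIT3 and IFIT5, lies inside the interval for MX1 and OASL and outside it for OAS1 and OAS2.

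STAT2, the signalling subunit that carries the interferon signal from the receptor to the nucleus, moved the other way. It read 4220, 4090 and 4170 in NC and 3640, 3770 and 3780 with miR-21-3p. Every miR-21-3p library lay below every NC library, as for 14.8% of all genes tested. STAT2 fell by 0.16 on the log2 scale (SE 0.04, adjusted p = 0.035), to 0.897 times its NC mean.

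**Figure D2:**
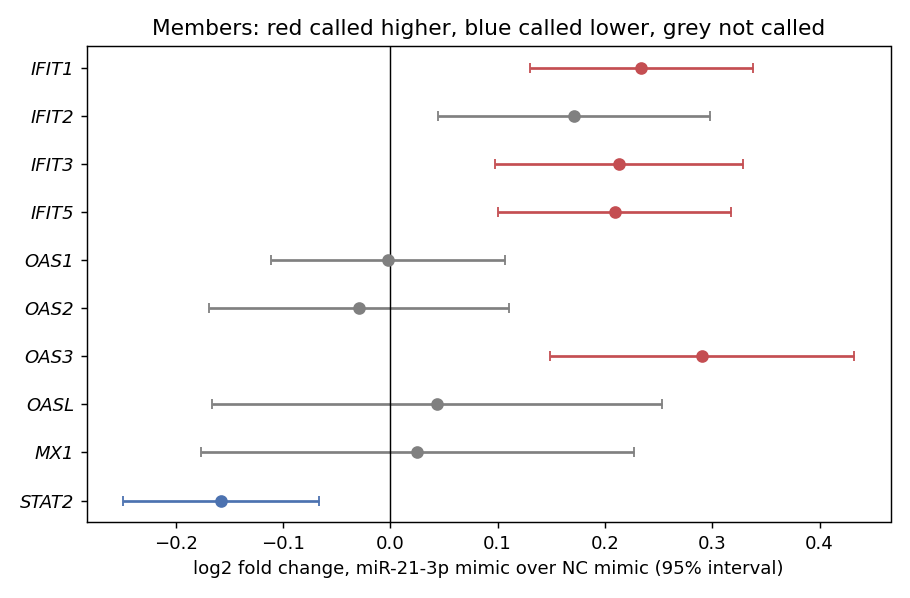
Log2 fold change of miR-21-3p over NC for each member (horizontal axis), with the 95% interval from limma as a bar, red for members called higher, blue for lower and grey for not called. The 4 members called higher lie between 0.21 and 0.29, STAT2 lies at -0.16, and the intervals of OAS1, OAS2, OASL and MX1 cross 0. IFIT2 lies at 0.17 and was not called, although its interval, from 0.04 to 0.30, does not cross 0.

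The calls on the members depended on which library was left out. Leaving out NC replicate 2 kept the 4 higher calls and the STAT2 call, with adjusted p = 0.0029 for IFIT1 and 0.00023 for OAS3. Leaving out miR-21-3p replicate 2 kept IFIT1, IFIT5 and OAS3 and lost IFIT3 (adjusted p = 0.062) and STAT2 (adjusted p = 0.052). Without NC replicate 1, IFIT1 alone stayed called, and without NC replicate 3, miR-21-3p replicate 1 or miR-21-3p replicate 3 none of the 10 did. The highest adjusted p for IFIT1 among these was 0.069 and for STAT2 0.15. Genes called over the whole table fell along with them, from 1593 with all libraries to 176 without NC replicate 3, and rose to 2957 without NC replicate 2. The direction of all 5 called members was the same with any library left out.

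**Figure D3:**
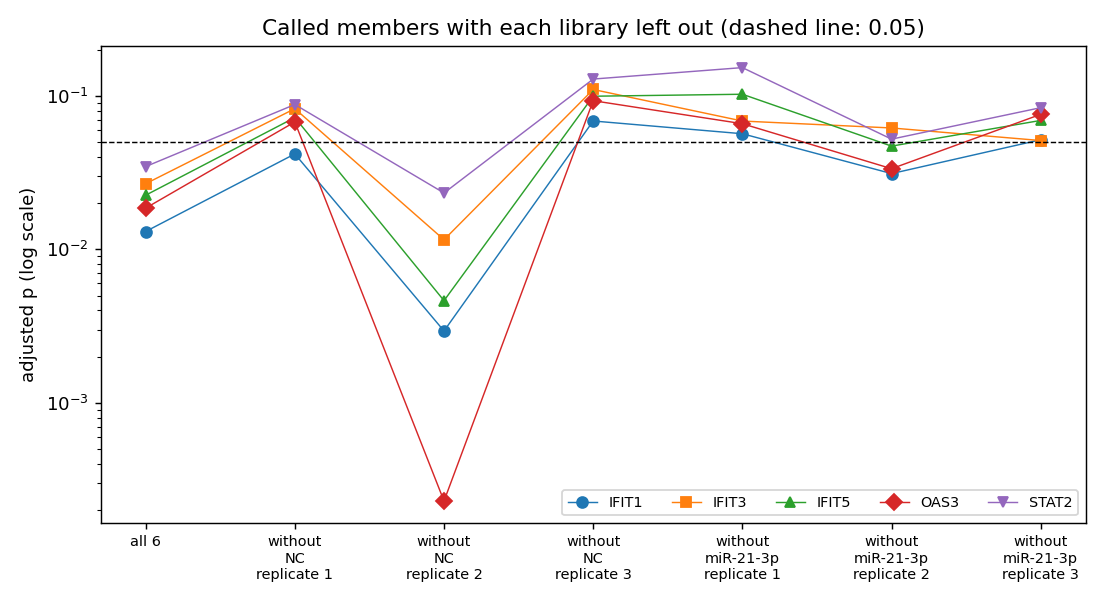
Adjusted p on a log axis for the 5 called members with all 6 libraries and with each library left out in turn; the dashed line marks 0.05. All 5 lie under the line with all libraries and without NC replicate 2, and in none of the other 5 fits.

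The other genes of the pathway were taken from lists that hold 113 further genes, of which 90 were measured and tested; the other 23 were not analysed here. All 9 listed interferon ligands, IFNB1 among them, are in that group, so no statement on interferon itself can be made. Of the 90 genes, 1 was called higher and 12 lower, beside 6.11% higher and 4.66% lower over all genes tested, and the median log2 fold change was -0.07. The 12 lower calls became 2 without NC replicate 3 or miR-21-3p replicate 1, 4 without miR-21-3p replicate 3 and 6 without NC replicate 1. In bulk RNA, fewer cells of a type and less RNA per cell cannot be told apart.

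None of the 6 receptor and Janus kinase genes was called by limma, edgeR or DESeq2, with 2 of them lower at an unadjusted p under 0.05. JAK1, with the highest read count of them, read 2830, 2690 and 2840 in NC and 2540, 2670 and 2500 with miR-21-3p (log2 fold change -0.12, adjusted p = 0.13). All 6 had a negative log2 fold change, between -0.16 and -0.05, while 7551 of all 14795 genes tested had a positive one. Beside the counts of this list and the next, limma called 4.66% of all genes tested lower and 6.11% higher. No such share is given here at an unadjusted p. The 7 kinases and transcription factors of the pathway also gave no call in any of the 3 tools, with 1 higher and 2 lower at an unadjusted p under 0.05. Limma called 2 of them lower without miR-21-3p replicate 2, and 1 higher without NC replicate 2. The highest read count was that of IRF1, an interferon-induced transcription factor, at 4870, 4570 and 4690 in NC and 4110, 4650 and 3990 with miR-21-3p (adjusted p = 0.11).

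Among the 12 sensors of double-stranded RNA and their adaptors, 3 were called lower and none higher, with 1 higher at an unadjusted p under 0.05. The same counts came from edgeR and DESeq2, but the 3 lower calls became 0 without NC replicate 3 or miR-21-3p replicate 1, 1 without miR-21-3p replicate 3, and 2 without NC replicate 1 or miR-21-3p replicate 2. Limma called 4.66% of all genes tested lower and 6.11% higher. TLR3, the endosomal receptor for double-stranded RNA, read 1050, 990 and 1140 in NC and 738, 878 and 736 with miR-21-3p. All miR-21-3p libraries were below the NC libraries, a log2 fold change of -0.44 ± 0.08 (adjusted p = 0.0088). MAVS, the mitochondrial adaptor of the cytosolic sensors, read 4460, 4260 and 4300 in NC and 3860, 3860 and 3880 with miR-21-3p (log2 fold change -0.17, adjusted p = 0.027), and it lost its call in 7 of the 17 alternatives (adjusted p at most 0.11). ADAR, with the highest read count of this list, read 12900, 13300 and 12900 against 12800, 13100 and 12900 (adjusted p = 0.89).

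Of the 42 other interferon-stimulated genes, 7 were called lower, 1 was called higher and 34 were not called, with a median log2 fold change of -0.08. These counts stand beside 4.66% called lower and 6.11% higher over all genes tested. The 7 lower calls became 1 without NC replicate 3 or miR-21-3p replicate 1, 2 without miR-21-3p replicate 3 and 3 without NC replicate 1. DDX60, a helicase linked to RIG-I signalling, was the gene called higher. It read 938, 1070 and 1110 in NC and 1170, 1210 and 1260 with miR-21-3p (log2 fold change 0.23 ± 0.07, adjusted p = 0.049), and edgeR and DESeq2 did not call it. TRIM22, an interferon-induced antiviral ubiquitin ligase, showed the largest decrease of this list. It read 2900, 2980 and 3120 in NC and 2010, 2430 and 2010 with miR-21-3p, a log2 fold change of -0.49 ± 0.07 (adjusted p = 0.0036). TRIM22 remained called under all 17 alternatives run. TNFSF10, the death ligand TRAIL, read 10700, 9570 and 11400 in NC and 7620, 8980 and 7250 with miR-21-3p (adjusted p = 0.011). SP110, a nuclear body protein, read 305, 299 and 338 against 275, 249 and 233 (adjusted p = 0.049), and DESeq2 did not call it. SHFL, an inhibitor of viral translation, read 503, 448 and 441 against 384, 366 and 390 (adjusted p = 0.036). SP110 lost its call in 10 of the 17 alternatives and SHFL in 7. SAMD9, which had the highest read count of the list without correction for length, read 17900, 18000 and 18800 against 18000, 19700 and 17800 (adjusted p = 0.83). The IFIT genes and OAS3 thus stood on the other side of 0 from most of the interferon-stimulated genes measured. Of the 42 in this list, 31 had a negative log2 fold change, while 7551 of all 14795 genes tested had a positive one. The contrast of the IFIT genes and OAS3 with this list was not itself tested.

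**Figure D4:**
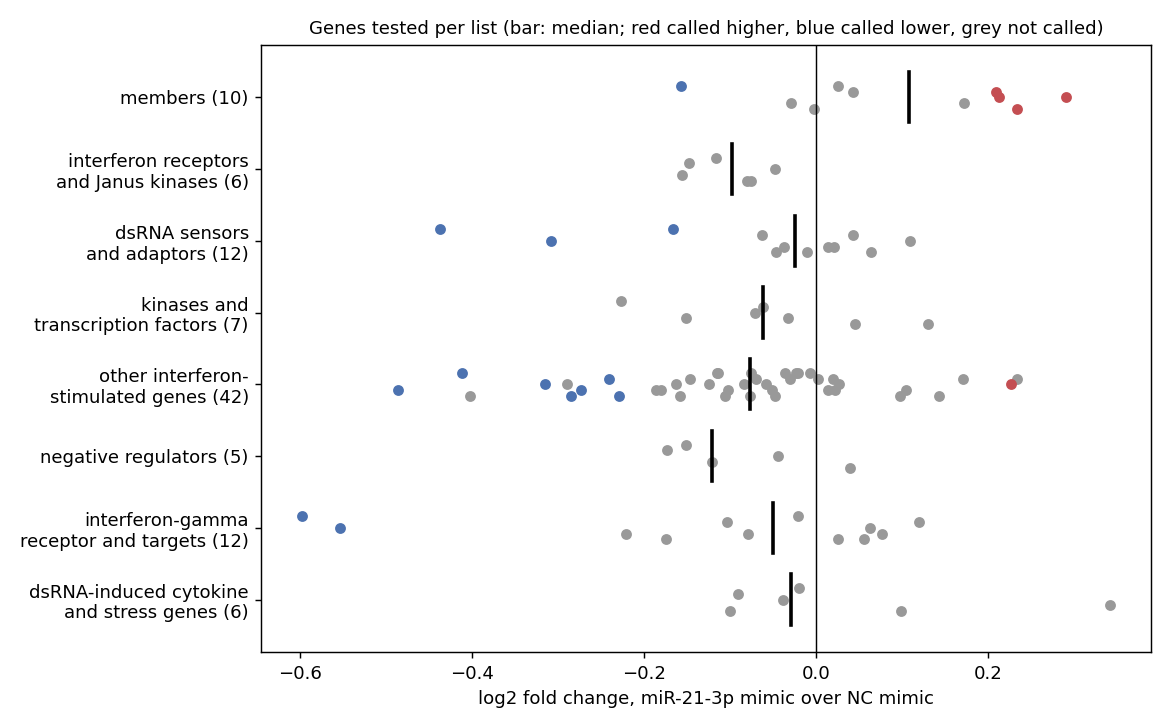
Log2 fold change of miR-21-3p over NC for every tested gene of the members and of the other pathway lists (number of genes in brackets; dsRNA is double-stranded RNA), with the median as a black bar. The member median lies at 0.11 and that of the other interferon-stimulated genes at -0.08, and the blue points, called lower, reach -0.60.

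The 12 genes of interferon gamma reception and response held 2 calls, both lower. For comparison, 4.66% of all genes tested were called lower and 6.11% higher. The 2 lower calls became 3 without NC replicate 2 or miR-21-3p replicate 2, and 1 when any other library was left out. GBP2, an interferon-induced GTPase, read 1230, 882 and 1250 in NC and 723, 902 and 599 with miR-21-3p, with overlapping groups (log2 fold change -0.60 ± 0.14, adjusted p = 0.023). GBP2 lost its call in 5 of the 17 alternatives, DESeq2 among them (adjusted p = 0.070). CIITA, the switch for class II antigen presentation genes, read 294, 271 and 276 in NC and 183, 197 and 192 with miR-21-3p (log2 fold change -0.55 ± 0.09, adjusted p = 0.0055). IFNGR1, the ligand-binding receptor chain with the highest read count of this list, read 2900, 2630 and 2840 against 2600, 2700 and 2490 (adjusted p = 0.21).

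None of the 5 negative regulators and none of the 6 cytokine and stress genes that double-stranded RNA induces were called by limma, edgeR or DESeq2, and none reached an unadjusted p under 0.05. Over all genes tested the share called by limma was 10.8%. CCL5, CXCL10, CXCL11 and IL6, also on the cytokine and stress list, were not analysed here. PIAS1, the negative regulator with the highest read count, read 3930, 3990 and 4090 in NC and 4080, 4200 and 4060 with miR-21-3p (adjusted p = 0.58). PPP1R15A, a stress-induced phosphatase subunit, read 1740, 1660 and 1800 against 1650, 1780 and 1700 (adjusted p = 0.84). CXCL8 read 49, 79.3 and 61.5 in NC and 83.6, 67.6 and 87 with miR-21-3p, with overlapping groups. Its log2 fold change of 0.34, the highest of the 90 other pathway genes, had an interval from -0.06 to 0.74 (limma, adjusted p = 0.25).

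The patterns most like that of the members were sought as Pearson's r over the 6 libraries between a gene and the mean of the 10 members, and 494 of 14680 genes outside the lists had r over 0.9. SELENOF had the highest r at 0.996, followed by OSBP2 at 0.995, GATC at 0.994, and PGAM1 and HMGA2, both at 0.993. Of these 5, GATC alone was called (log2 fold change 0.23, adjusted p = 0.046). Among the members themselves, r with this mean was 0.97 for IFIT1, 0.91 for OAS3, -0.02 for OAS1 and -0.83 for STAT2, so the mean mainly follows IFIT1, IFIT3, IFIT5 and OAS3. The libraries share their scaling, and no test was made on these coefficients.

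The libraries were similar in depth, with 24.4 M to 28.0 M recovered reads each. Of 12 keratinocyte markers 11 were measured, all were above 0 in every library, and their summed normalised read count was 343600 to 362613 in NC and 346952 to 375155 with miR-21-3p. Among these, KRT6A was called higher and ITGB4 lower, beside 6.11% higher and 4.66% lower over all genes tested. The lower call was lost without NC replicate 1, NC replicate 3, miR-21-3p replicate 1 or miR-21-3p replicate 3, and with the replicate block in limma. DESeq2 and total count scaling called 2 of these markers higher. Without NC replicate 2, limma called 2 higher and 2 lower. For fibroblasts only COL1A1 of 7 markers was measured, at 390 to 560 in NC and 364 to 378 with miR-21-3p. Its groups did not overlap, and limma did not call it (log2 fold change -0.34, adjusted p = 0.064). DESeq2, edgeR with the replicate block and limma without NC replicate 2 called COL1A1 lower. For melanocytes 2 of 5 markers gave a sum of 630 to 640 in NC and 585 to 616 with miR-21-3p, and for leukocytes only CD14 of 6 was measured, at 58.7 to 89.6 and 69.1 to 92.2. The part of these markers in the results on interferon genes was not tested.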

How the data were processed

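RNA from 3 NC and 3 miR-21-3p mimic libraries of HaCaT cells was sequenced (stranded mRNA kit, NextSeq 500). Per the labels' processing notes, the authors used bcl2fastq 2.18.12, cutadapt 1.15, TopHat2 2.1.1, featureCounts of Subread 1.5.2 and DESeq2; genome build and annotation are not given in the sources used here, nor whether counting used strand. The deposited values are a signal, gene read counts divided by a size factor per library and written to 3 significant digits. Low values (up to 20 reads) were whole multiples of 1 step per library in 100% of 9063 cases (tolerance 0.1), so reads were recovered by division; above 1000 reads they are approximate.

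Genes with a value of at least 10 in 3 libraries were tested with limma 3.58.1 (R 4.3.3) with a trended variance on log2(value + 1), which slightly understates changes of low genes; p-values were adjusted by Benjamini-Hochberg over all 14795 genes. The count design first planned was replaced since the file holds scaled values; edgeR 4.0.16 on recovered reads called 1638 genes and DESeq2 1.42.0 called 1606. The script was tested on simulated data. Members and lists were chosen with earlier results of these data known. Named besides the members were, per list, up to 4 called genes per direction by size and the gene with the highest mean read count (not corrected for length), plus CXCL8 and the 5 genes most like the members. Of 153 listed genes 114 were matched by name and 1 by gene ID. Near-identical family members can share reads. Some called or measured genes of the lists are counted but not reported by name here. Alternatives were other tools, scalings, filters and pseudocounts, a replicate block, and each library left out.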

Additional observations from a re-analysis of the deposited data

How the results depend on the processing

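Under the 17 alternatives (edgeR or DESeq2 on recovered reads, total count or TMM scaling, other filters, pseudocounts of 0.5 and 10, a replicate block, each library left out; edgeR with TMM, TMM scaling, the pseudocounts and the block in limma were chosen after seeing the data), all 5 called members kept their direction. IFIT1, IFIT3, IFIT5 and OAS3 lost their call only when a library was left out. OAS1, OAS2, OASL and MX1, which were not called, changed sign in 5, 2, 2 and 3 alternatives. Same-numbered NC and miR-21-3p libraries were not more alike than others. They had correlations of -0.00, -0.20 and -0.16 over genes, and differently numbered ones -0.13 to 0.27. With 3 libraries per group these values cannot settle whether the samples were paired. With the replicate block, STAT2 had an adjusted p of 0.10 in limma and in edgeR, so 0 members were called lower (1 at an unadjusted p under 0.05), 4 stayed higher, and 7 other pathway genes were called lower in limma and 8 in edgeR, against 12 without the block (sensors 2 in either tool against 3; other interferon-stimulated genes 3 and 4 against 7). The block called 1193 genes in all in limma. The 1 other pathway gene called higher became 0 with edgeR under TMM or RLE, DESeq2, total count scaling, TMM scaling, no filter and both block fits, with 3 to 5 such genes at an unadjusted p under 0.05. With each library left out, genes called ranged from 176 to 2957 (95 to 1627 higher, 81 to 1330 lower), members called higher from 0 to 4 and lower from 0 to 1, and other pathway genes called higher from 0 to 2 and lower from 2 to 14. These fits hold fewer samples than the main fit, in which 1593 genes were called. The cause of these ranges was not tested. No scaling moved the median of all genes by more than 0.01 on the log2 scale. MX1 and OASL, the members with the lowest counts, have the widest intervals.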

Other observations

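Ratios within a library do not depend on scaling between libraries; the pairs below were chosen after their values were seen and are given as values only. The ratio of OAS3 to OAS1 normalised read counts was 1.89 ± 0.277 (SD, n = 3) in NC and 2.30 ± 0.137 with miR-21-3p, and NC replicate 2 lay above the lowest miR-21-3p library. The ratio of IFIT1 to OAS1 was 0.897, 1.04 and 0.946 in NC and 1.13, 1.10 and 1.17 with miR-21-3p, without overlap. The ratio of OAS2 to OAS1 was 0.466, 0.538 and 0.543 in NC and 0.488, 0.507 and 0.521 with miR-21-3p, with the miR-21-3p values inside the NC range.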
